A study of Mus musculus with 22 samples.

Results

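The interferon-inducible GTPases of the IRG and GBP families were followed in the ileum of mice given antibiotics. The members were 8 of the 18193 genes that the arrays could name: the IRG genes Igtp, Irgm1, Irgm2 and Iigp1, and the GBP genes Gbp2, Gbp3, Gbp7 and Gbp6. They were chosen by symbol, and each gene was represented by the probe set (a group of probes for 1 transcript) with the highest mean over all arrays. The mice were NOD, an inbred line prone to autoimmune diabetes, and RNA of their terminal ileum was hybridised to 22 arrays of 1 colour. PAT mice received antibiotics in pulses at therapeutic doses (3 female and 5 male arrays), STAT mice received antibiotics at a sub-therapeutic level (3 female and 3 male arrays), and control mice stood against both (3 female and 5 male arrays). All groups shared the NOD background, whose autoimmunity limits how far the values stand for other strains. Which antibiotics were used, at what dose and at what age is not stated in the sources used here. Because the labels do not tie each array to an animal of its own, every p-value refers to the spread among arrays, part of which may be technical.

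IRG and GBP proteins are GTPases that cells make in large amounts after interferon-gamma, and to a lesser degree after type I interferon. They gather on vacuoles that hold intracellular parasites and bacteria and help to break them open. Within the IRG family, Irgm1, Irgm2 and Igtp are regulators that sit on the cell's own membranes and hold the effectors in check, and Iigp1 is an effector that loads onto the vacuole. Gbp2, Gbp3 and Gbp7 belong to a gene cluster on mouse chromosome 3 and Gbp6 to a cluster on chromosome 5. In the intestine these genes belong to the interferon response to microbes. Interferon-gamma acts through its receptor, the kinases Jak1 and Jak2 and the gamma-activated site of target genes, and then through the factor Irf1, which binds the interferon-stimulated response element. Type I and type III interferons act on the same element through Stat2 and Irf9.

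The stretches before the transcript starts are shown because they carry the motifs that interferon factors bind. Windows of 250 bases before to 50 after the start, from RefSeq on build GRCm38.p6, were given for 6 of the 8 members, and Iigp1 and Gbp6 were not matched. The 150 bases before the start are printed 5′ to 3′ on the strand of the gene for 5 members. They are chr11:58199406-58199555 (plus strand) for Igtp, chr11:58214827-58214976 (plus strand) for Irgm2, chr11:48871421-48871570 (minus strand) for Irgm1, chr3:142620513-142620662 (plus strand) for Gbp2 and chr3:142530186-142530335 (plus strand) for Gbp7. Capitals mark matches to the core of the interferon-stimulated response element (GAAANNGAAA) and to the gamma-activated site (TTCNNNGAA), searched on both strands.
Igtp: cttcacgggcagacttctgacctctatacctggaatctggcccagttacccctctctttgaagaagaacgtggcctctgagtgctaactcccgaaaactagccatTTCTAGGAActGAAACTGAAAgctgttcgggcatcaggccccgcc
Irgm2: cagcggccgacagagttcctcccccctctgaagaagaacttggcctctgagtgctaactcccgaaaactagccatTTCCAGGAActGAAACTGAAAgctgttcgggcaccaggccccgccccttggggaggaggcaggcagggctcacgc
Irgm1: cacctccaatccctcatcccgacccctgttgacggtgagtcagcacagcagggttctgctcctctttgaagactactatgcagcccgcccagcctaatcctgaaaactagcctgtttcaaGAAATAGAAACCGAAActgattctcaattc
Gbp2: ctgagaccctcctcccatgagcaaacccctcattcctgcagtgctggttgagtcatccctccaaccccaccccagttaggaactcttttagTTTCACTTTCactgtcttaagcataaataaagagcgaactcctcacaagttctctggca
Gbp7: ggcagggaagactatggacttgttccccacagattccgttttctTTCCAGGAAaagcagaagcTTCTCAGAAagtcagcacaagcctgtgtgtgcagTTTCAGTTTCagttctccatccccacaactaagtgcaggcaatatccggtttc

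The 6 genes had 7 windows, of which 6 held a match to the response element core, at least 1 for each gene, against 3.44% of 32851 RefSeq windows of the same length and 3.04% of the 18010 windows of genes on the array. It began 34 bases before the start in Igtp, 64 in Irgm2, 59 in Gbp2 and 53 in Gbp7. Irgm1 held a pair of overlapping matches, at 30 and 24 bases before the start. Gbp3 had 2 windows, and the first held a like pair, at 45 and 39 bases. The matches lay on the strand of the gene in the 3 IRG genes and on the opposite strand in the 3 GBP genes, where the printed letters are the reverse complement of the core. The gamma-activated site matched in 3 of the 7 windows (those of Igtp, Irgm2 and Gbp7), against 8.3% of all windows. In Igtp and Irgm2 it lay just before the response element with the same spacing. These neighbours on chromosome 11 also had the most similar upstream sequence, with 68.9% of aligned positions identical over 250 bases, against 47.5% to 55.4% for the other 14 pairs. A match describes these letters and not the binding of a factor.

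**Figure D1:**
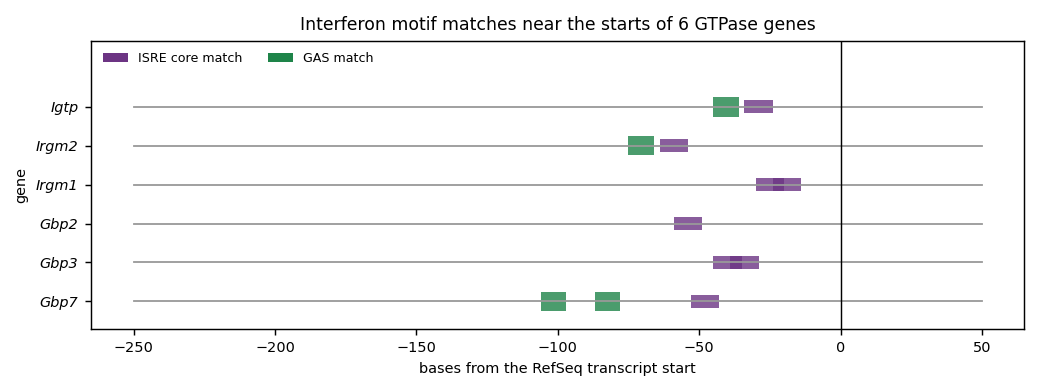
Matches to the interferon-stimulated response element core (purple) and the gamma-activated site (green, taller) along 300 bases around the RefSeq transcript start of 6 GTPase genes, in bases from the start (vertical line at 0). All 6 genes hold a response element core within 64 bases before the start, and overlapping matches in Irgm1 and Gbp3 appear darker.

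The tissue label was checked against its markers. Fabp6, the bile acid binding protein of ileal enterocytes, had a mean log2 level of 14.29 over the arrays, and Apoa1 one of 14.47. PAT female 1 stood apart with a summed B cell marker level (mean of centred log2 levels) of 1.82, against -0.24 to 0.11 in the other 21 arrays. STAT males 2 and 3 stood apart with a beta-actin difference between the transcript's ends, a measure of RNA integrity, of 0.59 and 0.60, against at most 0.42 elsewhere. The members' calls are given with and without these 3 arrays. So are the calls of 32 other named genes in PAT against control averaged over the sexes. Further calls, such as those of other genes in PAT against STAT, are given with all arrays only.

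In PAT ileum the 3 regulators among the IRG members were called lower, while Iigp1 and the GBP members did not pass the test. The calls did not follow size alone, as the log2 difference was -0.53 for Gbp6, not called, and -0.42 for Irgm1. Ifi47, an IRG gene outside the members, was also called lower (-0.79). Whether the regulators differed from the other members was not tested. Averaged over the sexes, Irgm2 was 1.8-fold lower, Igtp 1.73-fold lower and Irgm1 1.34-fold lower in PAT than in control arrays. Limma called 3 of the 8 members lower and 0 higher at an adjusted p under 0.05. Over all genes, 6.38% were called lower and 4.61% higher, which makes 11% in either direction. The members' median log2 difference was -0.35, against -0.005 over all genes.

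**Figure D2:**
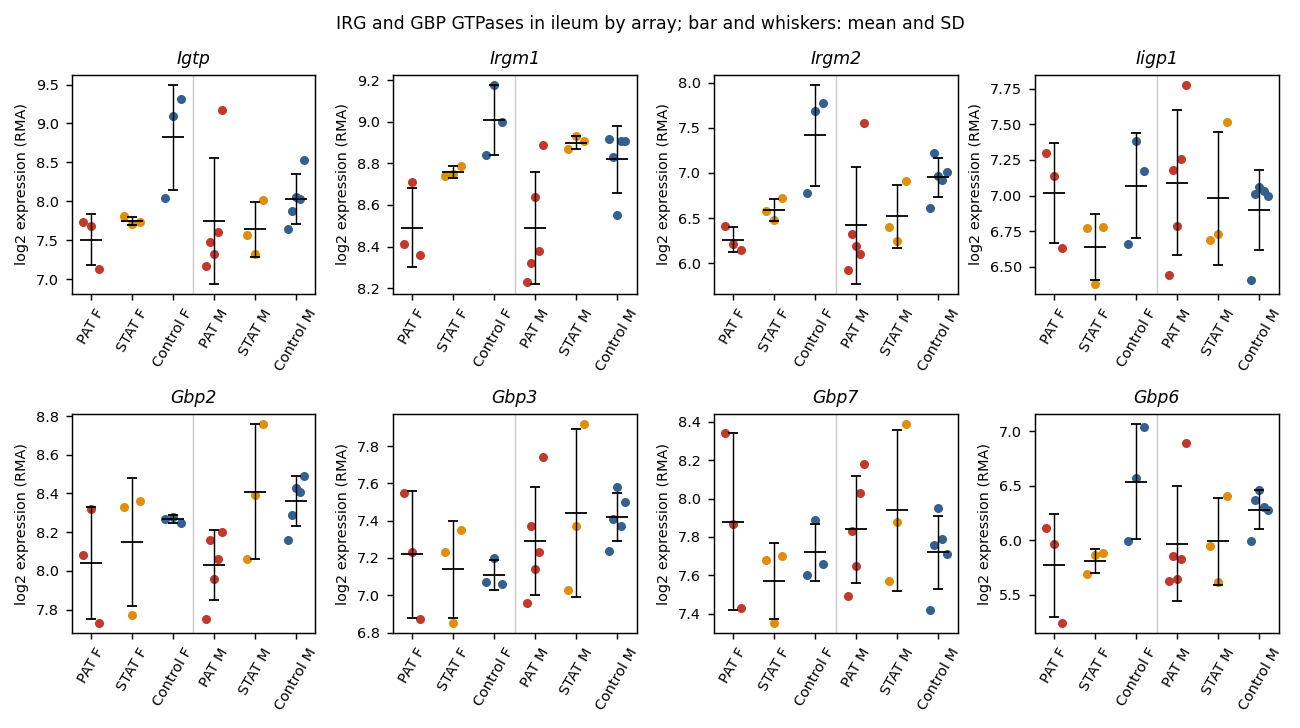
Log2 expression (RMA values) of the 8 GTPases on every array, by treatment and sex (F, female; M, male), with the mean and SD of each group as bar and whiskers. Irgm2 and Irgm1 lie lower in most PAT arrays, and PAT male 5 stands above the other PAT males in Igtp, Irgm2 and Gbp6.

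Irgm2 had log2 levels of 6.41, 6.21 and 6.15 in PAT females, against 6.78, 7.69 and 7.78 in control females. In males it had 5.92, 6.32, 6.19, 6.1 and 7.55 with PAT, against 6.61, 7.22, 6.97, 6.92 and 7.01 in controls. Every PAT array but PAT male 5 lay below every control array, and PAT male 5 lay above all control males. The log2 difference averaged over the sexes was -0.84 ± 0.19 (SE, adjusted p = 0.0073). Irgm2 stayed called whichever single one of the 16 PAT and control arrays was removed.

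Irgm1, which guards autophagy and membrane traffic in infected cells, moved less in size and with less spread. It had log2 levels of 8.41, 8.71 and 8.36 in PAT females, against 8.84, 9.18 and 9 in control females. In males it had 8.23, 8.32, 8.64, 8.38 and 8.89 with PAT, against 8.92, 8.83, 8.55, 8.91 and 8.91 in controls. The female groups did not overlap, and in males PAT male 5 and PAT male 3 overlapped the controls, the lowest of which was control male 3. The log2 difference was -0.42 ± 0.09 (SE, adjusted p = 0.0045), and Irgm1 stayed called in all 16 such runs.

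Igtp, a regulator that resides on the endoplasmic reticulum, had log2 levels of 7.73, 7.68 and 7.13 in PAT females, against 8.04, 9.1 and 9.31 in control females. In males it had 7.17, 7.48, 7.33, 7.6 and 9.17 with PAT, against 7.65, 7.88, 8.05, 8.03 and 8.53 in controls. Within each sex every PAT array but PAT male 5 lay below every control array, and PAT male 5 lay above all control males. The log2 difference was -0.79 ± 0.24 (SE, adjusted p = 0.038). This call was held in 5 of 16 runs without a single array, with an adjusted p of up to 0.12, and it ended without PAT female 1 and STAT males 2 and 3 (-0.84, adjusted p = 0.056).

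Iigp1, the effector, did not pass the test. It had log2 levels of 7.3, 7.14 and 6.63 in PAT females, against 6.66, 7.38 and 7.17 in control females. In males it had 6.44, 7.18, 6.79, 7.26 and 7.78 with PAT, against 6.41, 7.01, 7.06, 7.03 and 7 in controls. The groups overlapped throughout, and the log2 difference was 0.07 ± 0.18 (SE, adjusted p = 0.88), with a 95% interval of -0.30 to 0.44. A second, dimmer probe set of Iigp1 had the same sign in 5 of 10 comparisons, so small differences of this gene depend on the probe set.

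Among the GBP genes, Gbp6 had the largest difference and just missed the threshold. It had log2 levels of 6.11, 5.97 and 5.24 in PAT females, against 5.99, 6.57 and 7.04 in control females. In males it had 5.63, 5.86, 5.65, 5.83 and 6.89 with PAT, against 5.99, 6.37, 6.46, 6.31 and 6.28 in controls. In males 4 of 5 PAT arrays lay below every control and PAT male 5 above them all, while 1 PAT female array overlapped the controls. The log2 difference was -0.53 ± 0.18 (SE, adjusted p = 0.067).

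Gbp2, which loads onto parasite vacuoles and onto cytosolic bacteria, had log2 levels of 8.08, 8.32 and 7.73 in PAT females, against 8.27, 8.28 and 8.25 in control females. In males it had 7.75, 8.16, 7.96, 8.06 and 8.2 with PAT, against 8.16, 8.29, 8.43, 8.41 and 8.49 in controls. The groups overlapped in both sexes, and the log2 difference was -0.28 ± 0.11 (SE, adjusted p = 0.11). With a covariate for RNA integrity, the difference between the ends of Gapdh, 5 of the 8 members were called lower: Gbp2 (-0.44, adjusted p = 0.041) and Gbp6 (-0.76, adjusted p = 0.042) joined the 3 regulators, among them Igtp at -1.07 and Irgm2 at -1.05. In that fit 1.8% of all genes were called lower. The covariate itself was higher in PAT than in control arrays (means of -0.12 and -0.2), so the fit cannot fully part it from treatment.

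Gbp3 and Gbp7, neighbours of Gbp2, had differences near 0. Gbp3 had log2 levels of 7.55, 7.23 and 6.87 in PAT females and 6.96, 7.37, 7.14, 7.23 and 7.74 in PAT males, against 7.07, 7.2 and 7.06 in control females and 7.24, 7.41, 7.58, 7.37 and 7.5 in control males. Gbp7 had 8.34, 7.87 and 7.43 in PAT females and 7.49, 7.83, 7.65, 8.03 and 8.18 in PAT males, against 7.6, 7.89 and 7.66 in control females and 7.42, 7.76, 7.95, 7.79 and 7.71 in control males. The groups overlapped for both genes in both sexes. The log2 difference was -0.01 (95% interval -0.28 to 0.26) for Gbp3 and 0.14 (95% interval -0.15 to 0.42) for Gbp7, with adjusted p-values of 0.98 and 0.61.

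In a bulk tissue such as this, fewer cells that express a gene and less RNA per cell cannot be told apart. Among the 16 arrays with the lower title numbers, which leave out PAT male 5 and 5 arrays of other groups, the log2 differences were -0.98 for Irgm2, -0.45 for Irgm1 and -0.88 for Igtp, and Gbp6 was also called (-0.65, adjusted p = 0.021). The labels do not say what the title numbers stand for. Among these 16 arrays every control number lay below every STAT number, and every STAT number below every PAT number. Treatment and number order cannot be told apart there. PAT male 5 was the only PAT array with a higher number. Control males 4 and 5 had higher numbers too. PAT male 5 lay above both in Igtp (9.17 against 8.03 and 8.53) and Irgm2 (7.55 against 6.92 and 7.01). In Irgm1 it lay just below both (8.89 against 8.91 and 8.91).

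**Figure D3:**
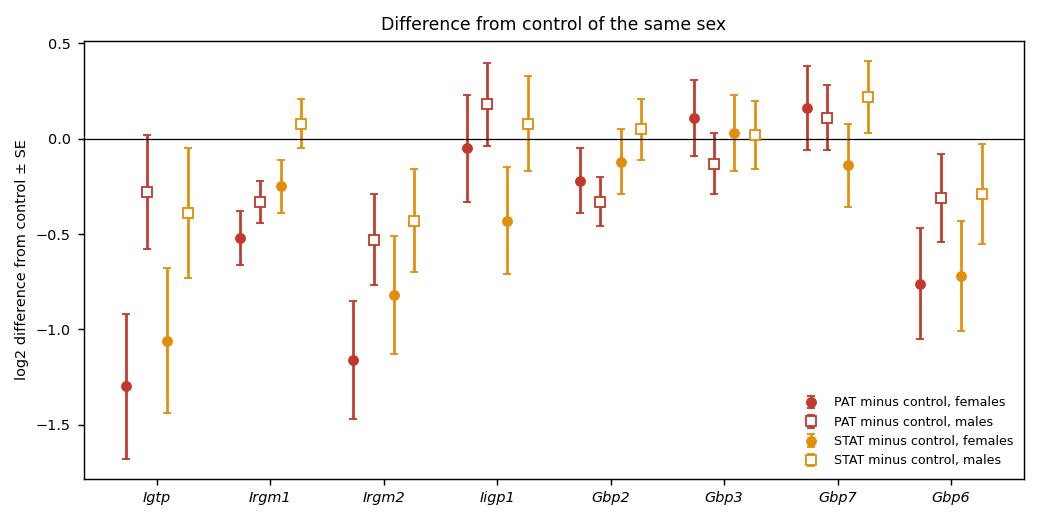
Log2 difference from control arrays of the same sex ± SE for each GTPase, for PAT (red) and STAT (orange), in females (filled circles) and males (open squares). The differences of Igtp, Irgm2 and Gbp6 lie furthest below 0 in females, and those of Gbp3 and Gbp7 lie near 0.

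By sex, limma called 2 of the 8 members lower in PAT females, Irgm2 (-1.16 ± 0.31, adjusted p = 0.042) and Irgm1 (-0.52 ± 0.14, adjusted p = 0.049), against 1.08% of all genes called lower and 3.35% in either direction. Igtp had a difference of -1.30 ± 0.38 in females (adjusted p = 0.059). Igtp, Irgm1 and Irgm2 were lower in every PAT female than in every control female, 3 of 8 members, against 13.2% of all genes. Each of these 2 calls ended in most runs without a single female array. Irgm1 was called in 0 and Irgm2 in 1 of 6, and 0 members were called without PAT female 1 and STAT males 2 and 3 (Irgm2 at -1.23, adjusted p = 0.093, and Irgm1 at -0.47, adjusted p = 0.17).

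In PAT males 0 of 8 members were called, against 9.02% of all genes, and 3 of 8 were lower at an unadjusted p under 0.05, against 16.6% of all genes. These 3 were Irgm1 (-0.33 ± 0.11, adjusted p = 0.063), Irgm2 (-0.53 ± 0.24, adjusted p = 0.17) and Gbp2 (-0.33 ± 0.13, adjusted p = 0.13). Igtp had -0.28 ± 0.30 in males (adjusted p = 0.59). Without PAT male 5, Irgm1 (-0.43, adjusted p = 0.012) and Irgm2 (-0.81, adjusted p = 0.0071) were called lower in males, against 4.41% of all genes called lower in that fit. Irgm1 was also called without control male 3 or without PAT male 3.

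The PAT difference itself was not shown to depend on sex. The interaction of PAT with sex called 0 of the 8 members and 0.0055% of all genes. Its largest value was that of Igtp, at -1.03 ± 0.48 (unadjusted p = 0.045, adjusted p = 0.26). Among controls, females and males did not differ in any member past the threshold (0 of 8, against 0.055% of all genes), with Igtp at 0.79 ± 0.34 (females minus males, adjusted p = 0.34).

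In STAT ileum Igtp, Irgm2 and Gbp6 had the largest differences below 0, but no gene of the array passed the threshold. Limma called 0 of the 8 members and 0% of the 18193 genes in STAT against control arrays averaged over the sexes. At an unadjusted p under 0.05, 3 of 8 members were lower, against 7.08% of all genes. These were Igtp (-0.73 ± 0.26, unadjusted p = 0.0098, adjusted p = 0.26), Irgm2 (-0.62 ± 0.20, unadjusted p = 0.0062, adjusted p = 0.26) and Gbp6 (-0.50 ± 0.20, unadjusted p = 0.018, adjusted p = 0.29). With array weights, which trust arrays of large residuals less, Igtp (-0.71, adjusted p = 0.028) and Irgm2 (-0.57, adjusted p = 0.027) were called lower in STAT, against 6.74% of all genes in that fit. Without STAT males 2 and 3 and PAT female 1 the values were -0.76 and -0.68, and 0 members were called. PAT and STAT were set against the same control arrays, so their differences from control are not independent.

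The separation was clearest in STAT females. Igtp had log2 levels of 7.81, 7.71 and 7.74 in STAT females, against 8.04, 9.1 and 9.31 in control females. Irgm2 had 6.58, 6.48 and 6.72 in STAT females, against 6.78, 7.69 and 7.78 in control females. Gbp6 had 5.69, 5.87 and 5.88 in STAT females, against 5.99, 6.57 and 7.04 in control females. The 3 STAT females lay close together and below all 3 controls for each of these genes, while the controls spread widely.

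For Irgm1, STAT females had log2 levels of 8.74, 8.75 and 8.79, against 8.84, 9.18 and 9 in control females. With Irgm1, 4 of 8 members were lower in every STAT female than in every control female, against 5.1% of all genes. None of them was called (adjusted p = 1 for all 8 members), and the differences were -1.06 ± 0.38 for Igtp, -0.82 ± 0.31 for Irgm2, -0.72 ± 0.29 for Gbp6 and -0.25 ± 0.14 for Irgm1. The other members, Iigp1, Gbp2, Gbp3 and Gbp7, had STAT female levels that overlapped the controls.

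In STAT males 0 of 8 members were called and 0 passed an unadjusted p under 0.05, against 15.7% of all genes at the unadjusted threshold. Igtp had log2 levels of 7.57, 7.32 and 8.02 in STAT males, against 7.65, 7.88, 8.05, 8.03 and 8.53 in control males. Irgm2 had 6.4, 6.25 and 6.91 in STAT males, against 6.61, 7.22, 6.97, 6.92 and 7.01 in control males. STAT male 3 was 1 of the arrays with a large beta-actin difference. It was the highest of the 3 STAT males in Igtp, Irgm2, Iigp1 and all 4 GBP members. It exceeded every control male in Iigp1 (7.52), Gbp2 (8.76), Gbp3 (7.92) and Gbp7 (8.39). The interaction of STAT with sex called 0 of 8 members, with a lowest adjusted p of 0.99.

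PAT and STAT arrays differed in Irgm1. It had log2 levels of 8.23 to 8.89 in the 8 PAT arrays (median 8.39), against 8.74 to 8.93 in the 6 STAT arrays (median 8.83). Of the PAT arrays only PAT male 5 reached the STAT range. The log2 difference was -0.34 ± 0.10 (PAT minus STAT, SE, adjusted p = 0.038). Irgm1 was the 1 call among the 8 members, against 5.88% of all genes in either direction and 2.98% lower. It was called in 4 of 14 such runs without a single array, with adjusted p up to 0.1, and ended without PAT female 1 and STAT males 2 and 3 (-0.31, adjusted p = 0.27). The other 7 members did not pass. The difference was -0.06 ± 0.26 for Igtp (95% interval -0.59 to 0.47), -0.22 ± 0.20 for Irgm2 (95% interval -0.65 to 0.21) and -0.24 ± 0.12 for Gbp2 (adjusted p = 0.24).

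Most members moved together from array to array within the groups, and Irgm1 did so least. After each group's mean was removed, all 28 pairs had a positive Pearson correlation over the 22 arrays, from 0.22 to 0.93 with a median of 0.67. Of these, 21 had an adjusted p under 0.05 (two-sided permutation within groups, adjusted over the 28 pairs). Among the pairs of Irgm1, only that with Igtp passed (permutation adjusted p = 0.042). The same share over all pairs of genes was not computed, so these counts are not set against a background. All arrays share 1 normalization, and the members share their tissue piece.

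The tightest pairs were found around Igtp and around Gbp7. Igtp correlated with Irgm2 at r = 0.92 (Spearman's rho 0.85, permutation adjusted p = 0.002 for r), and at 0.80 without the 2 arrays farthest from the median of Igtp. Igtp and Gbp6 had r = 0.91, and Irgm2 and Gbp6 r = 0.89. Gbp3 and Gbp7, neighbours on chromosome 3, had r = 0.93 (rho 0.89, permutation adjusted p = 0.00019 for r), and 0.91 without the 2 farthest arrays. Iigp1 correlated with Gbp7 at r = 0.89 (rho 0.94). Irgm1 was the least tied to the rest, with r from 0.22 (with Gbp7) to 0.63 (with Igtp). The correlation with Igtp was 0.33 without the 2 farthest arrays and so rests on them. Among the 16 arrays with the lower title numbers, r was 0.86 for Igtp and Irgm2, 0.93 for Gbp3 and Gbp7, and 0.38 for Igtp and Irgm1.

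**Figure D4:**
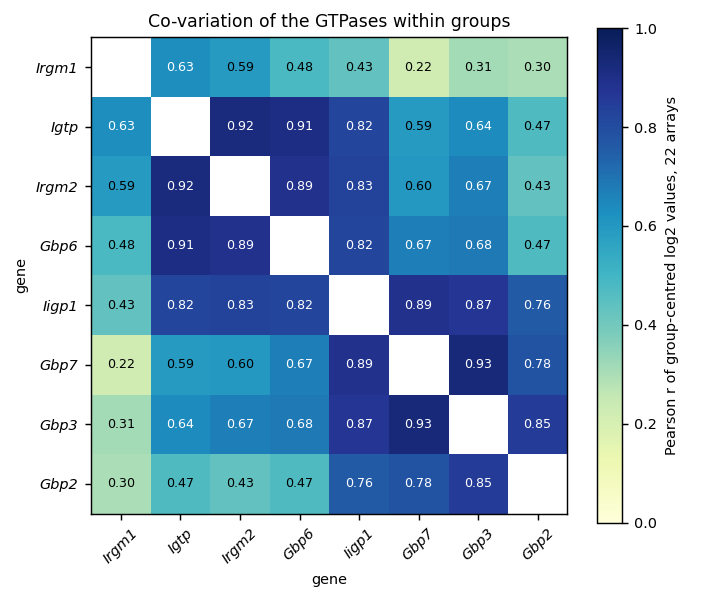
Pearson correlation between the GTPases over 22 arrays after each group's mean was removed, as colour and number. Igtp, Irgm2 and Gbp6 (0.89 to 0.92) and Iigp1, Gbp7 and Gbp3 (0.87 to 0.93) form the tightest sets, and Irgm1 has the lowest values.

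Other members of the families were compared in the same fit. Of 23 further IRG, GBP and related large GTPase genes, 10 had a probe set of their own on the array, and 3 of the 10 were lower in PAT averaged over the sexes, against 6.38% of all genes, with a median of -0.04. Ifi47, an interferon-induced GTPase of the IRG family, had log2 levels of 8.8, 8.53 and 8.13 in PAT females and 7.95, 8.02, 8.36, 8.12 and 8.9 in PAT males, against 9.01, 9.29 and 9.71 in control females and 9.11, 9.34, 8.71, 8.71 and 9.12 in control males. PAT male 5 and PAT female 1 overlapped the lower controls. Ifi47 fell by 0.79 ± 0.14 on the log2 scale (adjusted p = 0.0015), a difference of the size of those of Igtp and Irgm2.

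Irgq, a member of the IRG family that lacks the usual GTP-binding residues, had 7.82, 7.85 and 7.9 in PAT females and 8.01, 7.76, 8.01, 7.77 and 7.82 in PAT males, against 8.14, 8.1 and 8.15 in control females and 8.48, 8.29, 8.34, 8.34 and 8.17 in control males. Every PAT array, PAT male 5 included, lay below every control array, as it did for 1.15% of all genes. Irgq fell by 0.36 ± 0.06 (adjusted p = 0.00034) and was also lower in PAT than in STAT arrays (-0.35, adjusted p = 0.0012). The antiviral GTPase Mx1 fell by 0.36 ± 0.09 (adjusted p = 0.011), at a low level, and was not called with the Gapdh covariate (-0.31, adjusted p = 0.11).

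The other 7 did not pass. The log2 differences (PAT minus control) were 0.06 for Gbp2b, 0.19 for Gbp8, 0.12 for Gm4951, 0.22 for Irgc1 and 0.12 for Mx2, and -0.17 and -0.13 for the atlastins Atl1 and Atl3, relatives that fuse endoplasmic reticulum tubules. The probe set shared by the IRG genes Tgtp1 and Tgtp2 differed by 0.02 ± 0.20 with PAT (adjusted p = 0.97) and by -0.57 ± 0.21 with STAT (adjusted p = 0.31). In STAT arrays 0 of the 10 family genes were called, with Ifi47 at -0.52 ± 0.15 (unadjusted p = 0.0027, adjusted p = 0.23).

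Upstream of these genes, the interferon-gamma RNA itself was near the bottom of the scale. Ifng had group means of 3.82 in PAT females and 3.9 in PAT males, against means of 3.95 in females and 3.89 in males of the control group. It differed by -0.06 (adjusted p = 0.77), at a level where array values are compressed. The receptor chain Ifngr1 differed by -0.03 (adjusted p = 0.87). Of 11 measured genes of the interferon-gamma pathway, 3 were lower and 2 higher in PAT averaged over the sexes, with a median of -0.06. The shares over all genes were 6.38% called lower and 4.61% called higher.

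Irf1, the factor that carries the interferon-gamma signal to the GTPase genes, had log2 levels of 9.75, 10 and 9.82 in PAT females and 8.97, 9.46, 9.66, 9.51 and 10.25 in PAT males, against 10.92, 11.23 and 10.94 in control females and 10.65, 11.11, 10.51, 10.68 and 10.57 in control males. Every PAT array lay below every control array. Irf1 fell by 1.16 ± 0.14 (2.23-fold lower, adjusted p = 3.1e-05), and stayed called whichever single array was removed. It was also lower in PAT than in STAT arrays, by -0.87 ± 0.15 (adjusted p = 0.0012), while STAT differed from control by -0.28 ± 0.15 (adjusted p = 0.42). PAT male 5, which had high Igtp, Irgm2 and Gbp6, was the highest PAT array for Irf1 and still below all controls.

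The kinase Jak2 fell by 0.31 ± 0.08 (adjusted p = 0.014) and the second receptor chain Ifngr2 by 0.32 ± 0.09 (adjusted p = 0.032). The inhibitors of the pathway went the other way: Socs1, which blocks Jak kinases, rose by 0.30 ± 0.09 (adjusted p = 0.042) at a low level averaged over the sexes, and the phosphatase Ptpn2 rose by 0.27 ± 0.07 (adjusted p = 0.016). Socs1 differed by -0.05 in PAT females (adjusted p = 0.89) and by 0.64 in PAT males (adjusted p = 0.0015), and its interaction of PAT with sex was -0.69 (unadjusted p = 0.0012, adjusted p = 0.11). The Ifngr2 and Socs1 calls were each lost in 9 of 16 runs without a single array, and Ptpn2 was lost without PAT female 1. With the Gapdh covariate Irf1 (-1.13 ± 0.17, adjusted p = 0.00047) and Socs1 were called, and Jak2 (-0.19, adjusted p = 0.27), Ifngr2 (-0.19, adjusted p = 0.38) and Ptpn2 (0.22, adjusted p = 0.17) were not.

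On the side of type I and type III interferon, 2 of 13 measured ligand, receptor and factor genes were lower in PAT and 0 higher, against 6.38% and 4.61% of all genes, with a median of -0.03. Irf9 fell by 0.57 ± 0.11 (adjusted p = 0.0023) and Stat2 by 0.40 ± 0.10 (adjusted p = 0.014), which together form the factor on the response element. The Stat2 call was lost without PAT female 1 and with the Gapdh covariate (-0.40 ± 0.13, adjusted p = 0.08). The ligand genes Ifnb1 (-0.02), Ifna1 (0.02), Ifna2 (0.02) and Ifna4 (0.08) and the receptor genes Ifnar1 (-0.03), Ifnar2 (-0.15), Ifnlr1 (0.13) and Il10rb (-0.20) did not pass averaged over the sexes, nor did Irf7 (-0.47, adjusted p = 0.098). By sex, Ifnar2 was called lower in PAT males (-0.31, adjusted p = 0.0073) and had 0.01 in PAT females, with an interaction of 0.33 (adjusted p = 0.15). Irf7 had -0.96 in PAT females (adjusted p = 0.061) and 0.02 in PAT males, with an interaction of -0.98 (adjusted p = 0.17). Between the treatments, Ifnlr1, the receptor chain of type III interferon, was higher in PAT than in STAT (0.50, adjusted p = 0.0042).

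Interferon-gamma targets that are not GTPases had a median of -0.25. Against 6.38% of all genes called lower and 4.61% higher, 7 of these 18 targets fell and 0 rose. They were parts of the antigen presentation machinery: the immunoproteasome subunits Psmb8 (-0.77 ± 0.13), Psmb9 (-0.50 ± 0.08) and Psmb10 (-0.44 ± 0.07), the peptide loading protein Tapbp (-0.51 ± 0.08), the peptide transporters Tap1 and Tap2, and B2m. The 4 with the smallest p had adjusted p-values between 0.00027 and 0.00095 and stayed called in all 16 runs. Tap1 (-0.33, adjusted p = 0.019) and B2m (-0.23, adjusted p = 0.047) were lost in 2 and 12 of 16 runs, and Tap2 (-0.31, adjusted p = 0.012) and B2m were not called with the Gapdh covariate (adjusted p = 0.1 and 0.39). The T cell chemokines Cxcl9 (-0.27, adjusted p = 0.62) and Cxcl10 (-0.08, adjusted p = 0.91) and the enzyme Ido1 (-0.76, adjusted p = 0.078) did not pass.

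Of 16 genes known chiefly as type I interferon targets, 5 fell and 0 rose, against 6.38% and 4.61% of all genes, with a median of -0.35. Ifit1 fell by 1.60 ± 0.31, Oasl2 by 1.13 ± 0.21, Rtp4 by 1.06 ± 0.23 and the RNA sensor Ddx58 by 0.47 ± 0.08, each called in all 16 runs. The related sensor Ifih1 (-0.22, adjusted p = 0.041) was lost in 9 of 16 and with that covariate. Oasl1 went the other way in value (0.40, adjusted p = 0.32), with 0.86 in PAT males (adjusted p = 0.067) and -0.05 in PAT females. Rtp4 had log2 levels of 7.58, 7.69 and 7.29 in PAT females and 7.19, 7.58, 7.62, 7.07 and 9.2 in PAT males, against 8.44, 9.02 and 9.31 in control females and 8.45, 8.63, 8.47, 8.24 and 8.47 in control males. Every PAT array but PAT male 5 lay below every control, as for Irgm2.

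**Figure D5:**
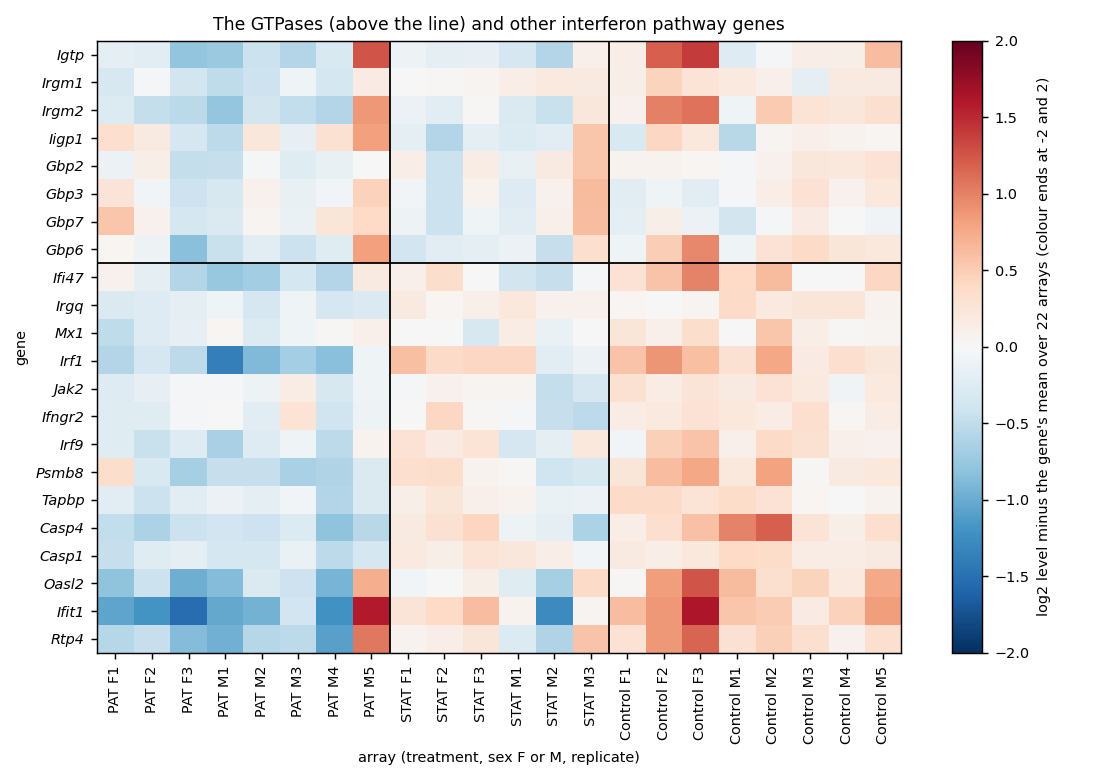
Log2 level minus the gene's mean over 22 arrays (red higher, blue lower), with arrays by treatment, sex (F or M) and replicate along the page and genes down it, the 8 GTPases above the horizontal line. PAT male 5 is high in Igtp, Irgm2, Iigp1, Gbp6, Oasl2, Ifit1 and Rtp4 and not in Irf1, Irgq, Tapbp, Casp1 or Casp4.

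Genes that act with the GTPases were described next. GBP proteins open bacterial vacuoles for the caspase-4 branch of the inflammasome. Of 9 inflammasome genes 3 were lower in PAT and 1 higher, against 6.38% and 4.61% of all genes, with a median of 0.01. Casp4, the sensor of cytosolic lipopolysaccharide, had log2 levels of 8.75, 8.6 and 8.81 in PAT females and 8.86, 8.83, 8.97, 8.44 and 8.69 in PAT males, against 9.37, 9.58 and 9.82 in control females and 10.23, 10.44, 9.51, 9.35 and 9.57 in control males. All PAT arrays lay below all controls. Casp4 fell by 0.97 ± 0.14 (adjusted p = 0.00017) and Casp1 by 0.53 ± 0.07 (adjusted p = 4.2e-05), both called in all 16 runs. The flagellin sensor Naip5 fell by 0.46 ± 0.12 (adjusted p = 0.016), which ended with the Gapdh covariate (-0.22, adjusted p = 0.34). The cytokine Il1b rose by 0.44 ± 0.11 (adjusted p = 0.01) at a low level, and it too was not called with that covariate (0.36, adjusted p = 0.13).

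The ubiquitin-like conjugation system helps to load IRG and GBP proteins onto vacuoles. Of 12 genes of this system and of other autophagy steps, 1 was lower and 0 higher, against 6.38% and 4.61% of all genes. The median of the 12 was -0.10, and the 1 call, of Becn1, fell outside the conjugation system itself. Becn1, which starts autophagosomes, was called lower (-0.18 ± 0.06, adjusted p = 0.049), but not in 12 of 16 runs without a single array or with the Gapdh covariate (-0.09, adjusted p = 0.55). The adaptor Sqstm1 had 0.33 (adjusted p = 0.13), Map1lc3a -0.19 (adjusted p = 0.15) and the conjugating enzyme Atg3 0.09 (adjusted p = 0.27). Of 11 genes for the cytokines that induce interferon-gamma and their receptors, Il12a rose by 0.25 (adjusted p = 0.018) at a mean log2 level of 4.07, near the bottom of the scale (3.87 for Ifng), from which 2 of 16 runs took the call, and Il15ra fell by 0.33 (adjusted p = 0.018), lost without control female 3 and with the Gapdh covariate (-0.30, adjusted p = 0.13). The receptor chains Il18r1 (0.44, adjusted p = 0.062) and Il18rap (0.17, adjusted p = 0.062) did not pass averaged over the sexes. Il18rap was called higher in PAT males (0.31, adjusted p = 0.0095) and had 0.03 in PAT females, while Il18r1 had 0.07 in PAT males and 0.82 in PAT females (adjusted p = 0.058). Neither interaction with sex passed (adjusted p = 0.21 for Il18rap and 0.2 for Il18r1). Other genes of the interferon lists called in 1 sex but not on average were Irf8 (-0.40, adjusted p = 0.018) and Cxcl11 (0.34, adjusted p = 0.022) in PAT males and Rsad2 (-1.27, adjusted p = 0.027) in PAT females. In STAT arrays 0 genes of any of these lists were called. In PAT against STAT arrays, where 5.88% of all genes were called, the further calls in these lists were Sqstm1 (0.61, adjusted p = 0.013), Socs1 (0.38, adjusted p = 0.024) and Oasl1 (0.99, adjusted p = 0.022), which were higher in PAT, and Casp1 (-0.46, adjusted p = 0.00049), Tapbp (-0.31, adjusted p = 0.027) and Psmb10 (-0.29, adjusted p = 0.034), which were lower.

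Markers of T and NK cells, which make interferon-gamma, were examined beside the GTPases. Of 14 T and NK cell markers, 3 were lower in PAT and 0 higher, against 6.38% and 4.61% of all genes, with a median of -0.07: the cytotoxic genes Gzma (-1.58 ± 0.24, adjusted p = 0.00033), Gzmb (-0.90 ± 0.18, adjusted p = 0.0029) and Prf1 (-0.27 ± 0.08, adjusted p = 0.038). The summed level of the list (mean of centred log2 levels) ran from -0.30 to 0.20 in PAT arrays. It ran from -0.30 to 0.068 in STAT arrays, against 0.071 to 0.23 in control arrays. The highest PAT level was that of PAT female 1, the array with high B cell markers. PAT male 5 came next at 0.044, so every other PAT array and every STAT array lay below every control array. For STAT the gap was narrow, from 0.068 to 0.071. Gzma and Gzmb, with the largest differences of the list, enter this level, so it is not a count of T or NK cells. How often other gene lists separate in this way was not tested. The T cell genes Cd3e (0.01), Cd3g (-0.28), Cd3d (-0.02), Cd8a (-0.02), Cd8b1 (-0.02), Cd4 (-0.07) and Cd2 (0.07) did not pass. Neither did Ccl5 (-0.40, adjusted p = 0.087), Nkg7 (-0.18, adjusted p = 0.085), Klrd1 (-0.07) or Ncr1 (0.05). By sex, Cd3g had -0.66 in PAT males (adjusted p = 0.065) and 0.10 in PAT females (adjusted p = 0.88). With the Gapdh covariate Gzmb (-0.63, adjusted p = 0.076) and Prf1 (-0.30, adjusted p = 0.11) were not called. Without PAT female 1 and STAT males 2 and 3, 7 of the 32 called genes named so far beside the members were no longer called in PAT (Ifngr2, Stat2, Becn1, Socs1, B2m, Ifih1 and Prf1, adjusted p between 0.052 and 0.083). With the Gapdh covariate 14 of the 32 were no longer called, and all 32 kept their sign. Of 10 macrophage and dendritic cell markers 1 was lower (Cd14, -0.59, adjusted p = 0.013) and of 6 endothelial markers 2 were higher (Kdr, 0.42, and Plvap, 0.49). None of the 5 B cell, 5 fibroblast or 6 epithelial markers was called, and 1 of 4 ileal enterocyte markers was higher (Fabp6, 0.21, adjusted p = 0.049). Apob, another of them, had 0.22 on average (adjusted p = 0.22) and was called higher in PAT males (0.51, adjusted p = 0.022). The Gapdh difference between the transcript's ends ran from -0.23 to -0.03 in PAT arrays and from -0.25 to -0.04 in STAT arrays, against -0.26 to -0.09 in control arrays. Its median was -0.08 in PAT females against -0.17 in control females, and -0.15 in PAT males against -0.26 in control males. Because it shifted with treatment, neither the calls gained nor those lost with this covariate can be set down to RNA integrity or to PAT alone. The part of these cells and of RNA integrity in the GTPase values was not tested beyond the covariate fits.

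The genes most like the GTPases over all 22 arrays, ranked by Pearson correlation with the mean of the 8 centred members, were Rtp4 (0.82), Xaf1 (0.80), Cxcl9 (0.79), Oasl2 (0.79), Usp18 (0.79), Ifit3 (0.78), C130026L21Rik (0.78), Lgals3bp (0.77), D630024D03Rik (0.76) and Phf11d (0.75). Cxcl9 encodes a chemokine that interferon-gamma induces, and Usp18 an enzyme that removes the ubiquitin-like Isg15 and dampens type I interferon signalling. Of these 10 genes, Rtp4 and Oasl2 were called lower in PAT than in control arrays, against 6.38% of all genes. The other 8 were not called. The values share arrays, tissue pieces and normalization with the members and describe the ranking only.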

How the data were processed

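Expression in terminal ileum was measured on 22 arrays of 1 colour. The deposited values are log2 expression per probe set, which the authors computed by RMA (affy), per the submitters' processing notes. No version and no further step is stated in the sources used here. The labels' protocols name TRIzol extraction, RNeasy cleanup and biotin labelling with an Affymetrix kit. RMA gives no detection calls and compresses low values, and the number of arrays limits the precision.

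The table held 45101 probe sets, with column medians of 5.68 to 5.79. After removal of 64 array-maker controls, 34945 probe sets had 1 symbol in the platform annotation, 932 several and 9160 none, which gave 18193 genes, each represented by its brightest probe set. No pair among 231 pairs of arrays was identical. Groups came from the labels. Limma 3.58.1 in R 4.3.3 fitted 1 mean per group to all arrays (16 residual degrees of freedom, 4.88 added by empirical Bayes). P-values are two-sided, adjusted by Benjamini-Hochberg over all genes within a comparison, with calls at an adjusted p under 0.05. Errors are SE of that model. The fit was tested on simulated data.

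Correlations between members used group-centred values with 100000 permutations within groups for Pearson's r and Spearman's rho (56 relations). Likeness was ranked over uncentred arrays. Promoter windows and coordinates are those of RefSeq on GRCm38.p6. The alternatives were other probe set summaries, low-level filters, normalizations, covariates, array weights, title numbers and leaving out each array; 1, leaving out 3 arrays that stood apart, was chosen after seeing the data. The members, gene lists and motifs were chosen with earlier results of these data known, so no list is independent support. Named genes were all members and measured family genes, all ligands and receptors, up to 4 genes of smallest p per list, Irf1, Socs1 and the 10 most alike genes; Tap1, Tap2, B2m, Cxcl10, Ido1, Ifih1, Irf8, Cxcl11, Rsad2, Oasl1 and the cell type markers were named after their values were seen. Protein sequences were not analysed here.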

Additional observations from a re-analysis of the deposited data

Results flagged for a closer look

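Single arrays were tested by Dixon's ratio of gap to range in the groups of 5 arrays (8 members in PAT males and control males). Of 16 tests, 5 set 1 array apart. The critical value was 0.71, which chance passes in about 1 in 20 groups, or 0.8 of 16. The members share arrays and correlate, so the 16 tests are not independent and the flags are not separate events.

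PAT male 5 was set apart in 3 members. Its Igtp level of 9.17 stood above the next PAT male at 7.6 (ratio 0.784), its Irgm2 level of 7.55 above 6.32 (ratio 0.754) and its Gbp6 level of 6.89 above 5.86 (ratio 0.821). The same array was the highest PAT male in all 8 members, and it lay below every control array in Irf1, Irgq, Casp1 and Casp4. Its title number stands above those of the other PAT arrays.

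Among control males, Irgm1 was low in control male 3 at 8.55, against 8.83 in the next (ratio 0.771), and Iigp1 was low in control male 1 at 6.41, against 7 in the next (ratio 0.908). The causes were not tested.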

How the results depend on the processing

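Of 600 values of single members under alternatives, 508 kept direction and side of the threshold, 23 passed it newly, 22 no longer passed and 47 changed sign, 0 of them in a value called before or after; Irgm1 and Irgm2 in PAT against control averaged over the sexes stayed called under all 15. Igtp there was not called with quantile normalization repeated (-0.77, adjusted p = 0.051), with only the groups compared (-0.79, 0.061), without the 3 arrays that stood apart (-0.84, 0.056) or in 11 of 16 runs that left out 1 array. The count of members called there was 3, and 2 in those 3 settings, 4 with array weights or the lower title numbers (Gbp6 added), 5 with the Gapdh or the beta-actin covariate and 2 to 4 when 1 array was left out. In PAT females it was 2, and 0 with every probe set on its own, 0 with only the groups compared, 0 without the 3 arrays apart, 1 with quantile normalization, 1 with the Gapdh covariate, 3 with genes of a mean of at least 6, the beta-actin covariate, array weights, the title number block or the lower title numbers (Igtp added, adjusted p between 0.015 and 0.049) and 0 to 2 when 1 array was left out. In PAT males it was 0, and 1 with genes of a mean of at least 6, with median centring, with either covariate and with the lower title numbers, and 0 to 2 when 1 array was left out. In STAT averaged over the sexes it was 0, and 2 with array weights (Igtp and Irgm2). In PAT against STAT it was 1, and 0 with quantile normalization, only the groups compared, the beta-actin covariate, the title number block, the lower title numbers or without the 3 arrays apart, 2 with array weights, and 0 to 1 when 1 array was left out. The number of genes called on the whole array changed with the setting as well, so these counts do not describe the members alone. Over all genes, PAT against control averaged over the sexes called 1999, and 3287 with every probe set and 756 with the Gapdh covariate; PAT females called 610, and 1524 with array weights and 123 at the lowest when 1 array was left out; PAT males called 1641, and 951 with only the groups compared, 2604 with every probe set and 833 at the lowest when 1 array was left out; STAT called 0, and 2288 with array weights and 1053 without STAT male 1; STAT males called 0, and 4069 with array weights; PAT against STAT called 1069, and 297 with the lower title numbers and 2631 with array weights; the interaction of PAT with sex called 1, and up to 165 with array weights; control females against control males called 10, and up to 332 with array weights. The sign changes were in small differences. Against control averaged over the sexes, Iigp1 with PAT (0.07) had -0.18 with the Gapdh covariate, -0.01 with the beta-actin covariate or array weights, 0 without the 3 arrays apart and -0.04 to 0.17 without 1 array; Gbp3 with PAT (-0.01) had 0 with quantile normalization, 0.02 with the title number block and -0.09 to 0.08 without 1 array; and Gbp7 with PAT (0.14) had -0.09 with the Gapdh covariate. In PAT females Iigp1 (-0.05) had 0.06 with the mean of its probe sets and -0.26 to 0.15 without 1 array, Gbp3 (0.11) had -0.13 with the Gapdh covariate, -0.06 without the 3 arrays apart and -0.06 to 0.28 without 1 array, and Gbp7 (0.16) had -0.07, -0.07 and -0.07 to 0.38 there. In PAT males the Gapdh covariate gave Iigp1 -0.05 and Gbp7 -0.11. With STAT averaged over the sexes, Gbp2 (-0.03) had 0.05 with array weights and -0.12 to 0.06 without 1 array. Gbp3 there (0.03) had -0.18 with the Gapdh covariate, -0.23 with beta-actin, -0.07 with the title number block, -0.22 with the lower title numbers, -0.18 without the 3 arrays apart and -0.09 to 0.13 without 1 array, and Gbp7 (0.04) had -0.17, -0.24, -0.04, -0.17, -0.15 and -0.07 to 0.13 in the same order and -0.03 with the mean of its probe sets. For PAT against STAT, Igtp (-0.06) had 0.06 with beta-actin, 0.17 with the block and -0.24 to 0.03 without 1 array; Gbp3 (-0.04) had 0.14, 0.09 and -0.14 to 0.08 there, 0.16 with the lower title numbers and 0.08 without the 3 arrays apart; Gbp6 (-0.03) had 0.08 with beta-actin, 0.10 with the block and -0.15 to 0.10 without 1 array; and Gbp7 (0.10) had -0.06 with array weights and -0.02 to 0.21 without 1 array. No scaling moved a median of all genes by over 0.071. The causes were not tested. No paired analysis was possible because the replicate numbers follow accession order and no title number is shared between groups. Array number limits what small differences can show.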
